A study of Gallus gallus with 2 samples.

Results

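The histone genes of the array were studied in DT40, a B cell line from chicken, whose cells carried either of 2 forms of the histone variant H2A.Z. A gene was included when a probe's RefSeq accession led to a chicken RefSeq symbol starting with HIST, H1F, H3F or H2AF. H2AFZ, the gene of H2A.Z.1, was set aside. The rule gave 14 genes, read by 32 probes, of 5382 named genes in all. The cells of both groups were an H2A.Z double knockout and differed in the FLAG-tagged protein they stably expressed, which was H2A.Z.1 in the first group and H2A.Z-R80C in the second. Both cultures were grown at 38 °C without tetracycline. Each group was 1 culture read on 1 array, so no difference below has a test, a p-value or a replicate error, and each describes these 2 arrays only. The promoter of the transgene, the number of clones behind each line and the level of the tagged protein were not given in the sources used here.

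Histones package DNA. The core histones H2A, H2B, H3 and H4 form the nucleosome, and linker histone H1 binds the DNA between nucleosomes. Replication-dependent histone genes lie in clusters, are transcribed mainly while DNA is copied, and make mRNAs that end in a stem-loop in place of a poly(A) tail. Most variant (replacement) histone genes lie elsewhere, are active throughout the cell cycle and make polyadenylated mRNAs. The cRNA was made with a labelling kit that starts from an oligo-dT primer, which mostly reads polyadenylated RNA. In what follows, symbols starting with HIST were taken as replication-dependent (7 genes, 10 probes) and the others as variants (7 genes, 22 probes).

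The arrays themselves were alike. The share of the 43803 non-control spots flagged well above background was 70.1% for H2A.Z.1 and 71.5% for R80C, and saturation was flagged nowhere. All 13 B cell markers with a named probe were measured, among them CD79B, a chain of the B cell receptor complex, and PAX5. Markers of dividing cells with a named probe (7 of 9) were all measured, with log2 differences between the arrays from -0.082 for MCM5 to 0.067 for PLK1 and a median of -0.020. Among markers of other cell types, 4 of 7 T and NK cell genes were measured. CD3E, part of the T cell receptor, was 2.91-fold lower in R80C cells on 2 of its 3 probes. CD3D stood at -0.071, CD28 at 0.038 and CD8A at 0.084 (log2). Unscaled signals summed over all probes of the list, measured or not, were 80191 in H2A.Z.1 cells against 72374 in R80C cells. Most of both sums came from CD3D, whose highest signals were 70974 and 63969. Of 5 fibroblast genes 4 were measured, 2 above 0 and 2 below. COL1A2, a collagen gene, was 1.92-fold higher in R80C cells, on 4 of 5 probes that ranged from 0.084 to 1.56 (log2). MYL9 stood at 0.46, FN1 at -0.020 and COL3A1 at -0.083. Summed signals of this list were 932 and 1686, to which the highest COL1A2 signals added 610 and 1197. Myeloid (3 of 6 measured) and red cell genes (1 of 6) had summed signals of at most 765 and 38.3 on either array. Most of the myeloid sums came from SPI1, at 663 and 671, with a difference of 0.048. TLR4 stood at -0.079. CSF3R stood at -0.54 on 1 dim probe, with 15.2 in H2A.Z.1 cells against 10.2 in R80C cells. HBBA, the red cell gene measured, stood at 0.25 on 1 of its 3 probes. The part of such genes in the histone values was not tested.

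All 10 probes of the replication-dependent genes were well above background on both arrays, although the labelling favours poly(A) tails. Of the probes of named genes, 78.8% were. Of the 10 probes, 9 lay among the brightest 10% of the array's probes on both arrays, as did 2247 of the 11935 probes of named genes. HIST1H101, a linker histone gene, gave the highest processed signal of any member, 112251 in H2A.Z.1 cells against 110799 in R80C cells. This was far under the scanner's saturation value of 777974. The linker histone gene HIST1H110 gave 79788 and 78938. HIST2H4B, a gene of histone H4, gave 60321 and 65428. HIST1H111R, also a linker histone gene, was the exception in brightness, with 1162 and 1046, close to the 75th percentile of each array (1078 and 1055).

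The variants covered a much wider range of brightness. H3F3B, which codes for histone H3.3, the replacement form of H3, gave between 57604 and 94087 over its 3 probes in H2A.Z.1 cells against between 58268 and 94991 in R80C cells. The second H3.3 gene of the rule, H3F3C (listed with the synonyms H3F3A and H3-I to H3-VIII, so that its identity is less sure), gave 21816 to 44372 and 19124 to 43886. H2AFY, the gene of macroH2A1, whose large extra domain marks silent chromatin, gave 1344 to 3848 and 1346 to 3621. H2AFY2, the gene of macroH2A2, was dimmer, at 50.1 to 415 and 53.9 to 395. H2AFX and H1F0 were near background. Of the 22 variant probes, 18 were measured, meaning well above background on both arrays, and 12 lay among the brightest 10% of the array's probes.

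**Figure D1:**
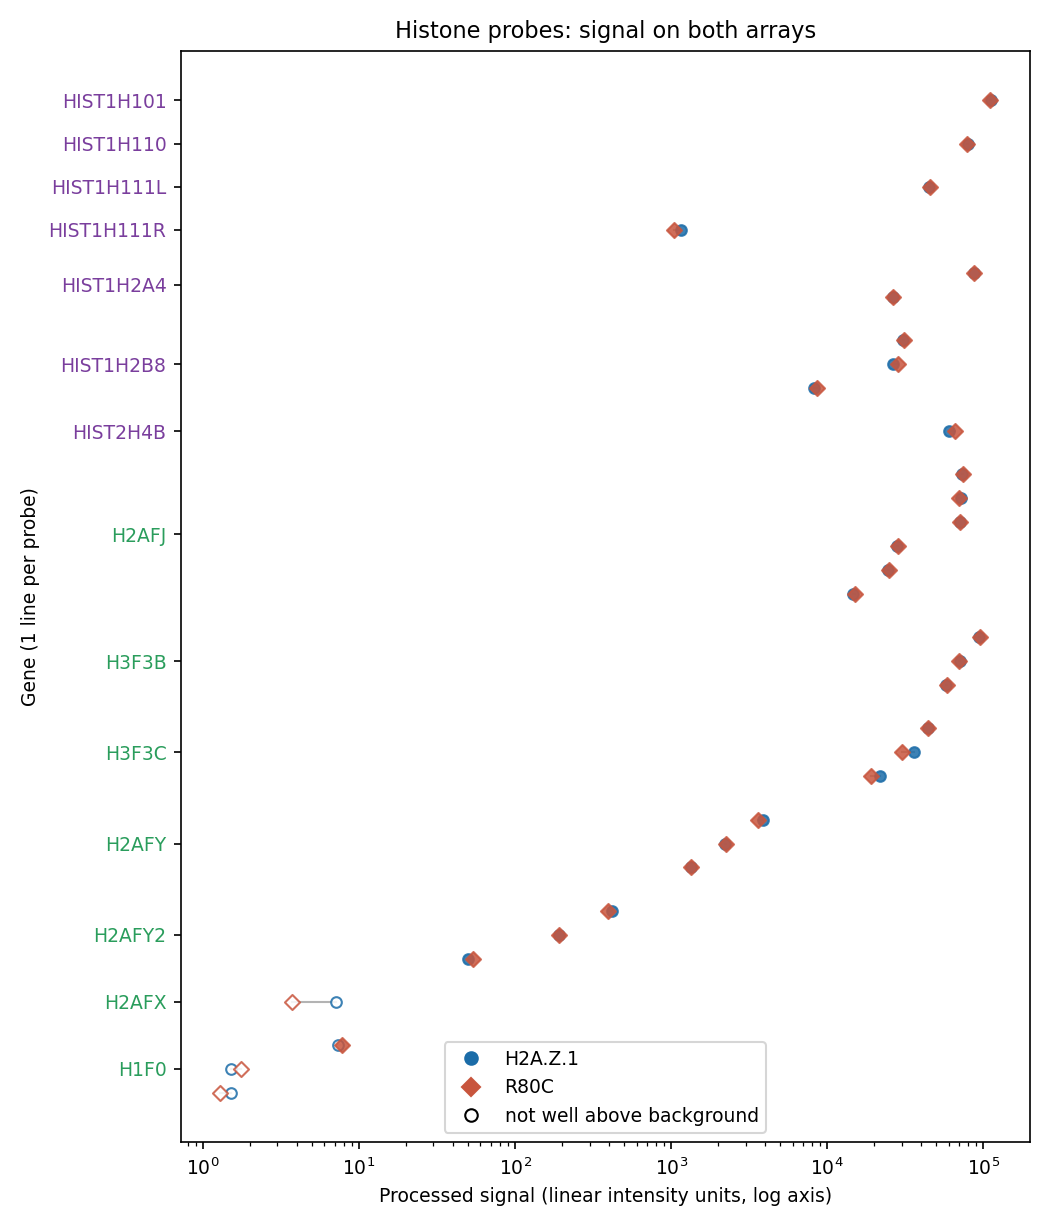
Processed signal (linear intensity units, log axis) of each of the 32 histone probes, with 1 line per probe, grouped by gene. Blue circles are H2A.Z.1 and red diamonds R80C, open symbols were not well above background, and purple and green gene names mark replication-dependent and variant genes. The replication-dependent probes sit at 1046 or above, whereas the variants run from near background for H1F0 and H2AFX to 94991 for H3F3B.

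Brightness does not rank the genes by transcript amount, because it also depends on the sequence and position of a probe. Over the 6 probes of H2AFJ the signal in H2A.Z.1 cells ran from 14696 to 73109, a 4.97-fold span, whose cause was not tested. The 3 probes of H2AFY2 spanned 8.30-fold. Many members of a histone family are close in sequence, so a probe may also read close copies, and the genes of H1, H2A, H2B, H3 and H4 are uncertain in that respect. Probe sequences were not used here.

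H2AFJ also does not sit clearly in either class. In mammals it is a variant gene outside the large clusters. In the order of genes of the chicken RefSeq table it lies between HIST2H4B and HIST1H2B7, inside a run of 37 neighbouring genes of which 29 carry a symbol of the rule, and the table lists HIST1H2A9 among its synonyms. The run lies between WBP11 and APOLD1 and holds all 7 HIST members with a probe and H2AFJ. All 16 probes of these 8 genes were measured, against 12 of the 16 probes of the 6 members outside it, where 78.8% of the probes of named genes were. The unmeasured probes were the 3 of H1F0 and the 1 of H2AFX. With H2AFJ counted among the replication-dependent genes, 15 of their 16 probes lay among the brightest 10%, and 6 of the 16 remaining variant probes did. Of the 11935 probes of named genes, 2247 were measured and lay there on both arrays.

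Between the 2 groups, no measured histone gene differed by 1.5-fold. Signals were scaled to the 75th percentile of their array before the comparison, and every difference is log2 of R80C minus H2A.Z.1. Of the 12 histone genes measured on both arrays, 0 reached 1.5-fold in either direction, where 1.94% of the 4326 named genes measured did, 0.67% higher and 1.27% lower. The count was also 0 at 1.2-fold, which 10.1% of named genes reached (4.07% higher, 5.99% lower), and at 2-fold, which 0.462% reached (0.162% higher, 0.301% lower). With so few genes a count of 0 says nothing particular about histones. The median over the 12 genes was 0.024, and that over all named genes 0.013. In these bulk samples, a difference in the share of cells in S phase and one in histone RNA per cell cannot be told apart.

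The precision of single probes was limited. Repeated spots of 39 probes, each printed 5 times, differed between the arrays with a standard deviation (SD) of 0.053 (log2), and the probes of a gene with an SD of 0.094 over 2776 named genes. Both are technical. Of the 28 measured histone probes, 14 had a difference smaller than the first of these SDs and 21 smaller than the second. The scanner software's own error estimate, which for bright spots is a fixed share of the signal, came to 0.20 (log2) for the ratio of a bright probe. It was exceeded by 1 probe of 28, which belongs to H3F3C. The same counts were not made over the probes of all named genes, so they say nothing particular about histones. The SD of 0.094 pools probes of all brightness, whereas 21 of the 28 histone probes lay among the brightest 10%.

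**Figure D2:**
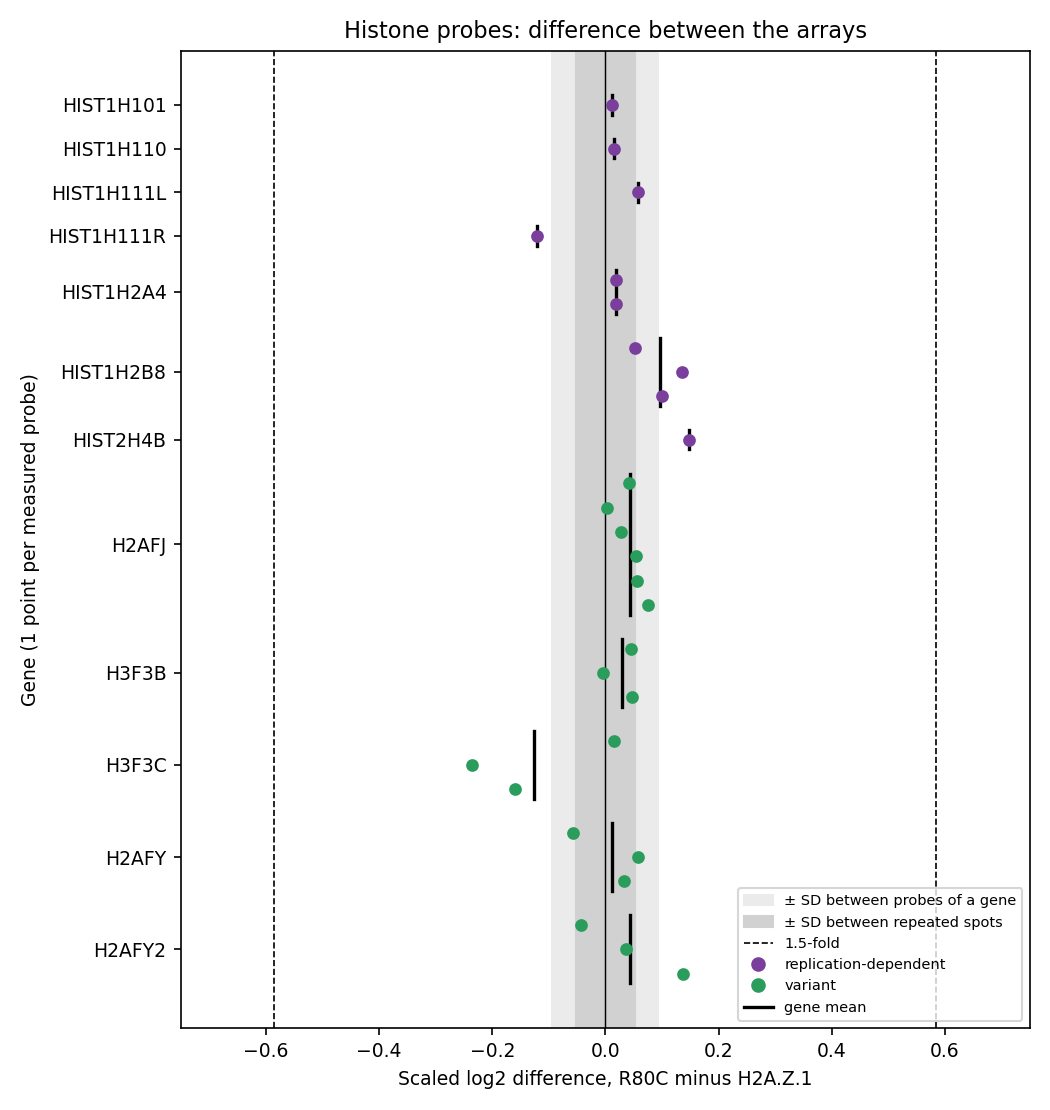
Scaled log2 difference, R80C minus H2A.Z.1, of each of the 28 measured histone probes, with the gene mean as a black bar. Grey bands are ± 1 SD between repeated spots (0.053) and between probes of a gene (0.094), and dashed lines mark 1.5-fold. HIST2H4B lies farthest right at 0.15, and a probe of H3F3C farthest left at -0.24.

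Linker histone genes of the run had values between -0.12 and 0.058. HIST1H101 had a difference of 0.012 and HIST1H110 of 0.015, both inside the spread of repeated spots. HIST1H111L, with signals of 44716 in H2A.Z.1 cells against 45571 in R80C cells, stood at 0.058, just outside that spread. HIST1H111R stood at -0.12, which is 1.09-fold lower in R80C cells, on 1 probe. That is outside both SDs and inside the scanner software's error of 0.20 for the ratio. Of named genes, 15.6% had a value below it.

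The core histone genes of the run included the highest value of the set. HIST2H4B stood at 0.15, 1.11-fold higher in R80C cells, on its only probe. Of named genes, 89.3% lay below that value. HIST1H2B8, a gene of histone H2B, followed with 0.097 over 3 probes. Those probes gave 26519, 8205 and 30429 in H2A.Z.1 cells against 28531, 8615 and 30900 in R80C cells. Their differences of 0.14, 0.10 and 0.053 all had the same sign. HIST1H2A4, a gene of histone H2A, gave 87688 and 86977 on its brighter probe and 26414 and 26185 on the other. Its probes differed by 0.019 and 0.018, and 99.4% of the 1417 named genes with 2 measured probes had a gap at least as wide.

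Along the run, of which 9 of 37 genes had a named probe, the 8 members that could be read lay in the order HIST1H2B8 (0.097), HIST2H4B (0.15), H2AFJ (0.043), HIST1H110 (0.015), HIST1H2A4 (0.018), HIST1H101 (0.012), HIST1H111L (0.058) and HIST1H111R (-0.12). Among these 8, the highest values belonged to the first pair, HIST1H2B8 and HIST2H4B, and the lowest to the last. With 8 genes on 2 arrays this is a description only.

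H2AFJ was the best covered member. In the main scaling its 6 probes differed by 0.0028 to 0.075, all above 0, with a mean of 0.043, where 55.6% of named genes lay above 0. Spike-in scaling lowered every value by 0.020, which took the lowest of these probes below 0. The 3 brighter probes, at 71050 to 73109 in H2A.Z.1 cells, had differences of 0.0028 to 0.042. The 3 dimmer ones, at 14696 to 28109, had 0.055 to 0.075. None of the 6 exceeded the SD between probes of a gene.

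The 2 H3 genes of the rule gave unlike values. H3F3B stood at 0.029, with probes at 0.047, -0.0040 and 0.044. H3F3C stood at -0.13, the lowest value of the 12 genes and 1.09-fold lower in R80C cells, and 14.7% of named genes lay below it. Its probes differed from each other. The brightest gave 44372 in H2A.Z.1 cells against 43886 in R80C cells, a difference of 0.015. The second gave 36171 and 30086, a difference of -0.24, and the third 21816 and 19124, a difference of -0.16. The span of 0.25 between them was reached or passed by 10.4% of the 791 named genes with 3 measured probes, whose median span was 0.085.

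Single probes were next set against others as bright, which is not the same measure as the shares of gene values given above. Among the 2247 measured probes of named genes that lay in the brightest 10% on both arrays, a group chosen after the values were seen, the SD of the difference was 0.081 and 0 reached 1.5-fold. Of these, 14 lay at or below the H3F3C probe at -0.24 (0.623%) and 52 at or below the one at -0.16 (2.31%). At the other end, 102 (4.54%) lay at or above HIST2H4B. The probes named were picked as the extremes of the 21 histone probes in that group. Taking the brightest probe as the value of a gene placed H3F3C at 0.015 instead of -0.13, so the low value rests on the other two probes.

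**Figure D3:**
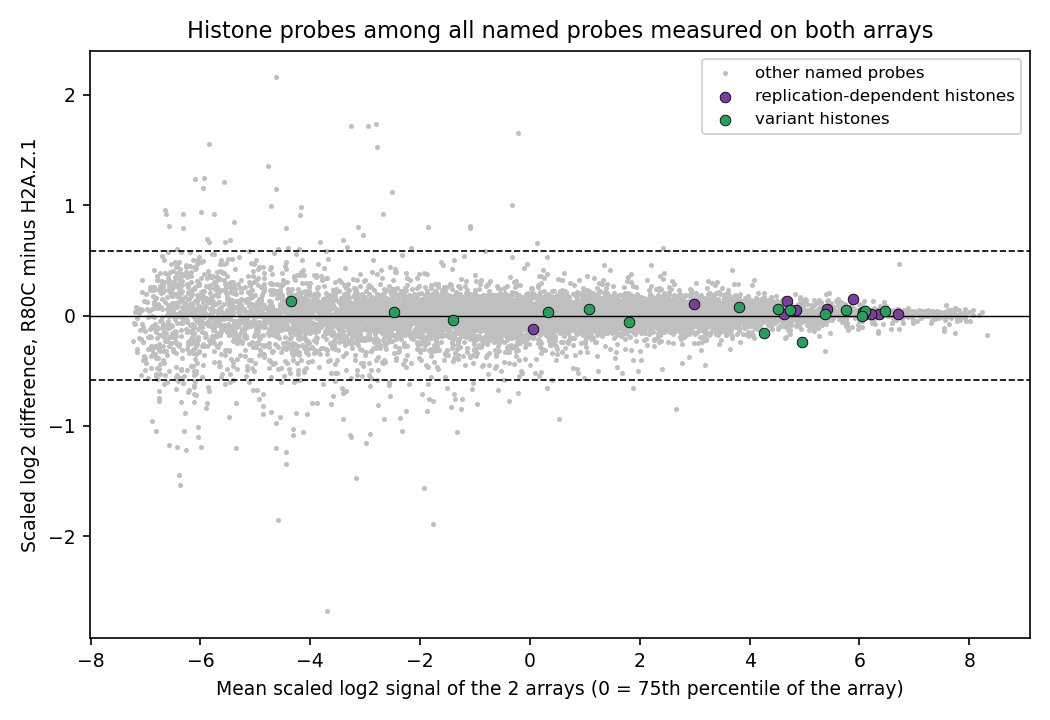
Difference between the arrays (R80C minus H2A.Z.1, log2) against the mean scaled log2 signal for all measured probes of named genes, where 0 on the horizontal axis is the 75th percentile of an array. Purple points are replication-dependent and green points variant histone probes, and dashed lines mark 1.5-fold. The histone probes lie between -0.24 and 0.15, most of them in the bright, narrow part of the cloud.

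The macroH2A genes had mixed signs within each gene. The 3 probes of H2AFY gave 3848, 1344 and 2217 in H2A.Z.1 cells against 3621, 1346 and 2259 in R80C cells. Their differences were -0.057, 0.033 and 0.058, and their mean 0.011. H2AFY2 had probes at -0.042, 0.14 and 0.036, the highest on its dimmest probe (50.1 in H2A.Z.1 cells against 53.9 in R80C cells), and a mean of 0.044. In both genes the brightest probe had a sign opposite to the mean.

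The remaining variants could not be compared. H2AFX, the gene of H2A.X, which is phosphorylated around DNA breaks, was read by 1 probe, with 7.13 in H2A.Z.1 cells against 3.74 in R80C cells. It was not well above background on either array, so no fold is given. H1F0, listed with the synonym H5, the linker histone of bird red blood cells, was read by 3 probes. Of these, 2 gave between 1.28 and 1.74 and were not well above background on either array. The third gave 7.29 in H2A.Z.1 cells, not well above background, and 7.74 in R80C cells, flagged well above background, and the gap between them was smaller than the error of the ratio, so no fold is given. The lowest signals well above background were 6.95 and 5.81. The red cell marker HBBA, a beta-type globin gene, was also dim, with its brightest of 3 probes at 17.3 and 20.2.

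Set side by side, the classes had 10 of 10 replication-dependent probes measured and 18 of 22 variant probes, where 78.8% of the probes of named genes were. In the comparison of the arrays the classes overlapped. The median difference was 0.018 over the 7 replication-dependent genes and 0.029 over the 5 measured variants. Their ranges, -0.12 to 0.15 and -0.13 to 0.044, shared most of their extent. All genes but HIST1H111R in the first class and all but H3F3C in the second lay above 0 in this scaling, 10 of 12 in all, where 55.6% of named genes did. That count followed the scaling: 10 lay above 0 when the arrays were scaled on their medians, 8 after quantile normalization and after normexp background correction with quantile normalization, 7 in the authors' series matrix, and 6 on spike-in scaling and after loess between the arrays. The median of all named genes moved as well, from 0.051 on array medians to -0.0066 on spike-in scaling. Their share above 0 was counted in the main scaling only. With H2AFJ moved to the replication-dependent class the medians were 0.031 and 0.020, in the reverse order. With H2AFJ left among the variants, the order also reversed after normexp with quantile normalization, at 0.015 and 0.014, and with the brightest probe of each gene, at 0.019 and 0.015. H3F3C, whose identity is less sure, was not moved between the classes.

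The genes farthest from 0 kept their sign under every scaling. No scaling moved any of the 12 genes by more than 0.038. That was too little to turn genes so far from 0, so the kept signs were no test of them. HIST2H4B lay between 0.12 and 0.19, HIST1H2B8 between 0.064 and 0.13, HIST1H111R between -0.14 and -0.083, and H3F3C between -0.15 and -0.089. The signs of H2AFY, HIST1H101, HIST1H110 and HIST1H2A4 turned under some scalings. Their values in the main scaling, 0.011 to 0.018, lay inside the spread of repeated spots.

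**Figure D4:**
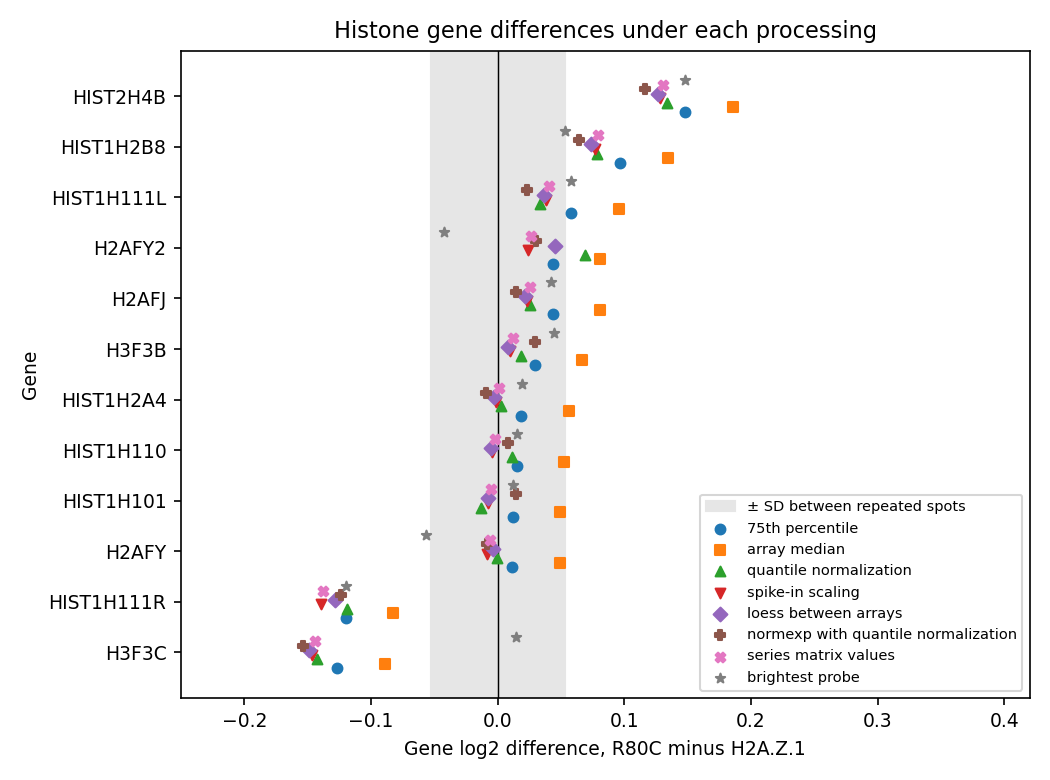
Log2 difference (R80C minus H2A.Z.1) of the 12 measured histone genes under 8 ways of processing, each with its own symbol, with the SD between repeated spots (0.053) as a grey band. HIST2H4B stays to the right of the band and HIST1H111R to its left in all of them, whereas H3F3C moves to 0.015 when only its brightest probe is used.

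The supply of histones also depends on genes that mature histone mRNA and on chaperones, proteins that carry histones to DNA. Together with CENPA and H2AFZ, histones outside the rule, 46 genes on 3 lists were looked up, of which 24 had a named probe and all 24 were measured. Of all named genes, 80.4% were measured. None of the 24 reached 1.5-fold, where 1.94% of named genes did, and their median was -0.014, with 9 above 0 and 15 below. The median of all named genes was 0.013, and 55.6% of them lay above 0. On array-median scaling the median of the 24 was 0.023, with 17 above 0, and the median of all named genes was 0.051.

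Of 17 genes of histone mRNA maturation and transcription, 6 had a named probe. All 6 lay just under 0 in the main scaling (median -0.031), where 55.6% of named genes lay above 0. CSTF2, POU2F1 and E2F1 had probes of both signs. On array medians these 3 genes and CPSF2 lay above 0, and SLBP and ERI1 below. SLBP, which binds the stem-loop of replication-dependent histone mRNA, gave 1681 and 9309 on its 2 probes in H2A.Z.1 cells against 1605 and 8552 in R80C cells. Its difference of -0.064 lay within the SD between probes of a gene, and its sign was the same under all scalings, at -0.084 to -0.026. Array-median and spike-in scaling moved every gene by 0.038 and -0.020, too little to turn that sign. ERI1, an exonuclease that trims the end of histone mRNA, stood at -0.047 in the main scaling and at 0.0079 after normexp with quantile normalization.

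Among chaperones and their partners (16 measured, median -0.014), HAT1, which acetylates newly made histone H4, had the highest value, 0.17 on the mean of its probes. Those probes gave 11859 and 3083 in H2A.Z.1 cells against 13037 and 3404 in R80C cells, and both differed by 0.17. After normexp with quantile normalization the value was 0.089. Subunits of CAF-1, which places H3 and H4 on newly copied DNA, followed with CHAF1B at 0.097 and CHAF1A at 0.065. The 4 probes of CHAF1B ran from 0.0056 to 0.20. RBBP4, another subunit, stood at -0.021 over 3 probes. ASF1A, a chaperone of H3 and H4, stood at 0.070. At the low end stood RBBP7, a histone-binding protein, at -0.12 on 1 probe, and UBN1, a partner of the H3.3 chaperone HIRA, at -0.11. The 2 probes of UBN1 were both at -0.11, and the dimmer gave only 11.1 in H2A.Z.1 cells against 10.1 in R80C cells. HJURP, the chaperone of the centromeric histone, stood at -0.060. That histone, CENPA, gave 260.2 in H2A.Z.1 cells against 259.6 in R80C cells, a difference of 0.028. H2AFZ stood at 0.041, with its probes at -0.028 and 0.11. The cells were an H2A.Z double knockout that expressed a tagged H2A.Z, and whether these probes read the transgene or the cells' own gene was not tested.

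**Figure D5:**
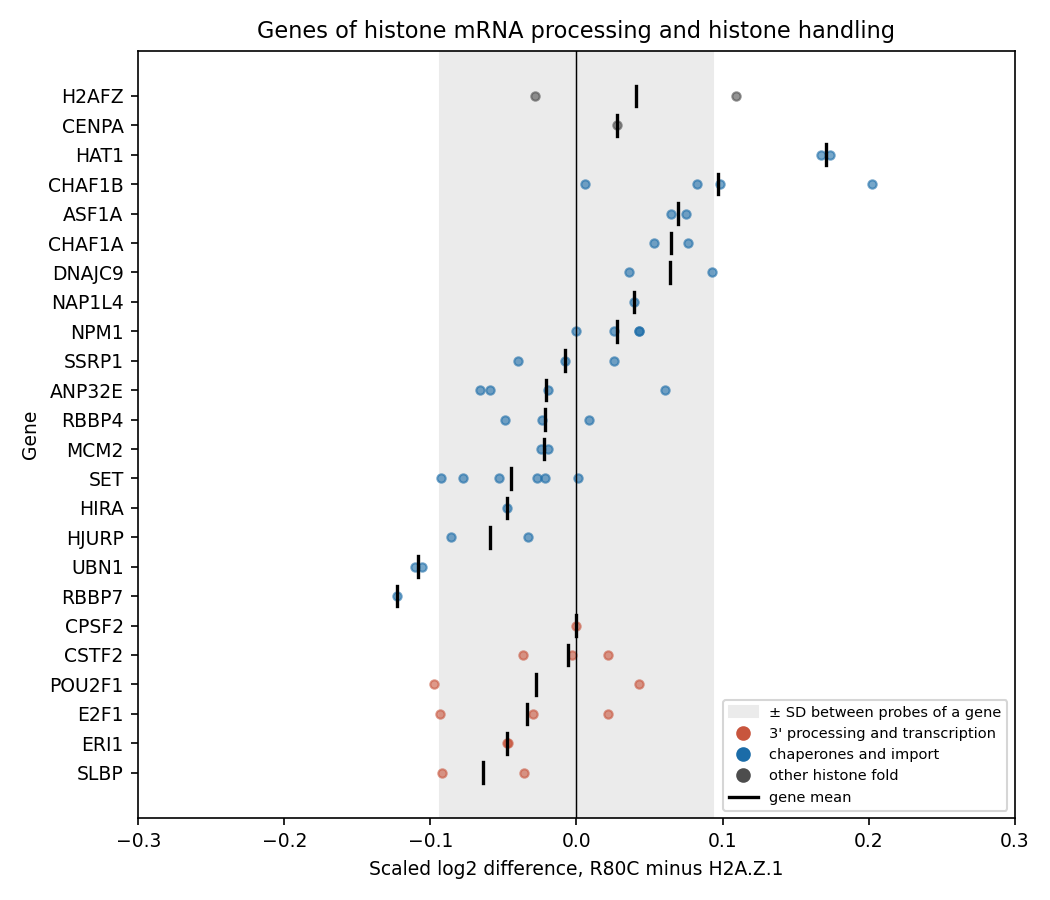
Scaled log2 difference (R80C minus H2A.Z.1) of the 24 measured genes of histone mRNA processing and histone handling. Points are probes and black bars gene means, and the grey band is ± 1 SD between probes of a gene (0.094). HAT1, CHAF1B, UBN1 and RBBP7 have gene means outside the band, from -0.12 to 0.17.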

How the data were processed

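Spot intensity in the deposited scanner files is linear and comes from Agilent Feature Extraction 11.5.1.1 (protocol GE1_1105_Oct12, grid of build galGal3), per the file headers. Background was subtracted on each array to give the processed intensity, and these scanner values carry no scaling from one array to the other. Flags per spot (other values, 0 or 1) mark spots well above background, positive and significant, saturated or outlying, per the file headers. The authors' series matrix holds intensity that equals the processed signal times 1.50 and 1.51, with column medians of 129.9 and 125.1. It is linear and not centred, and why that factor was used stays unknown.

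Cy3 cRNA from 100 ng of total RNA was hybridised per the labels' protocols. The file headers give 1 slide and 1 scan for the pair. Values are log2 of the processed signal minus log2 of the array's 75th percentile, and a gene is the mean of its probes well above background on both arrays (30199 of 43603 probes). Of 13060 probes with a RefSeq accession, 11935 matched a RefSeq table of assembly GRCg7b without versions. That build differs from the grid's, so no coordinates are given. Of 38 symbols of the rule, 24 had no matched probe and were not analysed here. List genes were matched by exact symbol. R 4.3.3 with limma 3.58.1 gave the quantile, loess and normexp (offset 50) alternatives, and the calculation was tested on simulated data. All members with a probe well above background are named, and of the histone supply genes the 4 largest differences per direction with SLBP, CENPA and H2AFZ. ERI1, RBBP4, CPSF2, CSTF2, POU2F1 and E2F1 were added after their values were seen. Members and lists were chosen with earlier results of these data known.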

Additional observations from a re-analysis of the deposited data

How the results depend on the processing

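No paired analysis was possible because each group holds 1 array, and for the same reason no replicate could be left out. Of 161 recomputed values, 156 stayed within the SD between repeated spots of the main value (for counts, within 1.5 times) and 5 did not. Much of this was fixed in advance. Array-median and spike-in scaling moved every gene by 0.038 and -0.020, less than the SD of 0.053. Looser detection filters could not move a gene whose probes were all measured. A value near 0 could turn sign and still count as within the SD. That 0 values past 1.5-fold changed sign was also fixed, since no histone or supply gene passed 1.5-fold in the main setting. The count of histone genes at least 1.5-fold different was 0 in the main setting, at 2-fold and at 1.2-fold, and 1 both with no filter on dim probes and with the more lenient detection flag. That gene was H2AFX, whose only probe was not well above background on either array. The share of all named genes past 1.5-fold was not counted with these looser filters, so the count of 1 says nothing particular about histones. The lenient flag raised the number of histone genes measured on both arrays from 12 to 14. Using the brightest probe moved H2AFY to -0.057, H2AFY2 to -0.042 and H3F3C to 0.015, and the cause was not tested. The median over histone genes ranged from 0.0027 after loess to 0.061 on array medians, and with probes in place of genes, an alternative chosen after seeing the data, it was 0.035. The median of the replication-dependent genes turned to -0.0013 on spike-in scaling and to -0.0030 after loess. No scaling moved the median of all named genes by more than 0.038. Counting H2AFX with the replication-dependent genes left both class medians as they were, since it was not measured. Moving HIST genes described as replacement histones was not run, because the naming table has no descriptions. Signal over background limits H2AFX and H1F0, and the number of arrays limits the rest.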

Other observations

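No H3 gene with a HIST symbol had a matched probe, so H3F3B and H3F3C had no counterpart among the members by symbol. The class of H3F3C, listed also as H3-I to H3-VIII, is itself less sure. The same run of neighbouring genes holds LOC769852, listed with the synonym HIST2H3L, which was looked up after the member values were seen. Its 2 probes gave 156926 and 163792 in H2A.Z.1 cells and 158152 and 160129 in R80C cells, brighter than any of the 32 histone probes of the rule. They differed by 0.042 and -0.0020 (log2, R80C minus H2A.Z.1), inside the SD between repeated spots of 0.053. It was the only other gene of the run with a named probe, so that 9 of the 37 genes could be read.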
